A study of Mus musculus with 20 samples.

Results

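Astrocytes keep the fluid around neurons in balance through a set of membrane proteins and enzymes, and the genes for 10 of these were followed here in whole mouse spinal cord: Aqp4, Kcnj10, Gja1, Gjb6, Slc1a2, Slc1a3, Glul, Slc7a10, Aldh1l1 and S100b. Members were all probes of the array whose annotated symbol was one of these names. This gave 18 probes of 44290, for 9 of the 10 genes, out of 19087 genes with a probe. Gjb6 had no probe by symbol, gene identifier or accession and is not analysed here. The number of probes per gene was 3 for Aqp4, 5 for Slc1a2, 2 for Slc1a3, 3 for Glul and 1 for each of the other 5 genes.

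The cords came from female C57BL/6 mice that were either wild type (WT) or littermates carrying the GFAP-IkappaBalpha-dn transgene (TG), which blocks the transcription factor NF-kappaB in cells that use the promoter of the astrocyte gene Gfap. TG males that bred these litters were heterozygous. Some mice were naive, and in the others experimental autoimmune encephalomyelitis (EAE), a model of multiple sclerosis raised by immunisation with a myelin peptide in complete Freund's adjuvant plus pertussis toxin, had run for 10, 17 or 80 days post-induction (dpi). The age label is 60 days for all, while the design text gives 2 to 4 months. Each of 20 two-colour arrays paired 2 animals and gave 1 log2 ratio per probe. Of these arrays, 14 paired a TG with a WT animal of the same time (3 naive, 4 at 10 dpi, 3 at 17 dpi, 4 at 80 dpi). The other 6 paired 2 times within a genotype, 1 array for each pair. The labels name 23 animals, 3 per group save for WT at 17 dpi (animals 1 and 4), although the design text states 3 animals for every time. Several animals were used on more than 1 array, so arrays are not independent replicates.

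Aqp4 forms the water channel of the astrocyte endfeet that wrap blood vessels, and Kcnj10 the inward rectifier channel that takes up potassium released by firing neurons. Gja1 and Gjb6 encode the connexins that join astrocytes into a network. Slc1a2 and Slc1a3 encode the glutamate transporters that clear synapses, and Glul the glutamine synthetase that turns the glutamate taken up into glutamine. Slc7a10 encodes an exchanger of small neutral amino acids, glycine and D-serine among them. Aldh1l1 is a cytosolic folate enzyme widely used as an astrocyte marker, and S100b a calcium-binding protein of astrocytes and of part of the oligodendrocyte lineage. In whole cord, fewer astrocytes and less RNA per astrocyte cannot be told apart. Signal levels are not part of these ratios. Neither the presence of the cell type markers nor the brightness of a probe could thus be checked, and levels of different genes cannot be compared.

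The numerator of a ratio is not stated in the sources used here. The ratios were read as TG over WT and EAE over naive, and on the 2 arrays of 17 and 80 dpi animals of 1 genotype in the order of the array titles. This is a working direction. It turns 9 of the 20 arrays against title order, in which the first-named animal, labelled with Cy5, would be the numerator. In the working direction the median ratio of macrophage and microglia markers was above 0 on all 4 arrays that set EAE against naive cord (1.62 for WT at 17 dpi, 1.45 for WT at 80 dpi, 0.48 for TG at 17 dpi and 0.22 for TG at 80 dpi). In title order it turned on both WT arrays. As this list helped to choose the reading, its sign is not a result. On TG and WT arrays the readings exchange a genotype difference for a dye effect. Title-order values are given below for members only, not for partner genes or marker lists. In title order no probe of the array was called for TG over WT at 17 dpi or for WT at 17 dpi over naive. Calls of partners and markers in these comparisons therefore hold in the working direction only.

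The fit held a coefficient for each genotype and time and a dye effect for each probe, and a probe was called when its limma p-value, adjusted over all 43792 probes tested (Benjamini-Hochberg), was below 0.05. Values are log2 fold changes ± SE. Each probe had 1 residual variance for all arrays, although arrays differed in spread. The SD over probes was 0.303 to 0.36 on the naive TG and WT arrays and 0.429 to 1.07 on those of 17 dpi. Tests at different times thus do not rest on an error fitted to each time, and their counts of calls are not directly comparable. In naive cord none of the 18 probes was called between TG and WT, nor was any probe of the array (0% called), and 0 member probes and 460 of all probes reached an unadjusted p below 0.05. At 10 dpi again no member was called, against 0.0274% of all probes, and 3 of 18 members and 2863 of 43791 probes had an unadjusted p below 0.05. At 17 dpi 2 member probes were lower in TG, both of Slc1a2, and 2 were higher, S100b and Slc7a10, against 8.44% lower and 4.56% higher among all probes. At 80 dpi 1 Aqp4 probe was lower and Slc7a10 was higher, against 1.43% and 0.224%. The median over the members was -0.04 in naive cord, -0.06 at 10 dpi, -0.08 at 17 dpi and -0.02 at 80 dpi, beside 0.00, 0.00, 0.04 and 0.01 over all probes. Calls among the members were in both directions at 17 and at 80 dpi.

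**Figure D1:**
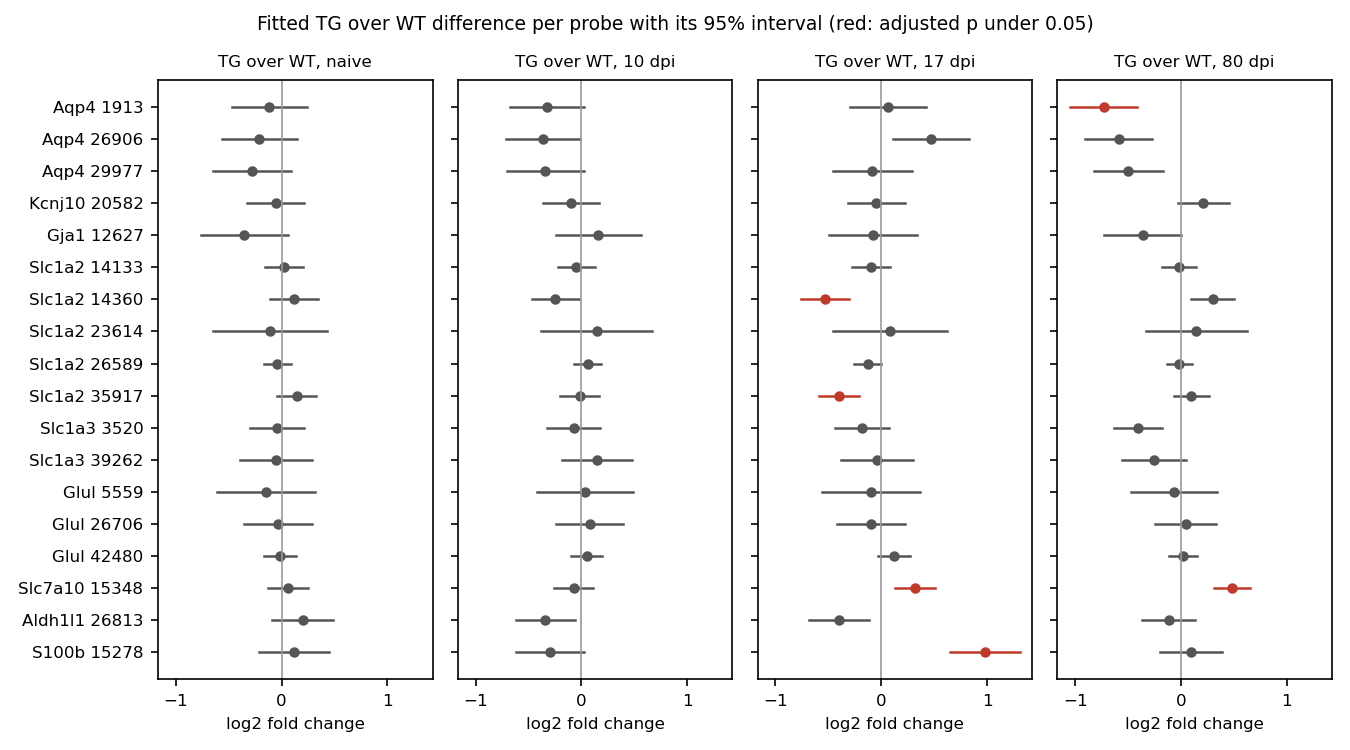
Fitted TG over WT log2 fold change (x axis) of each of the 18 member probes (y axis, gene and probe number) in naive cord and at 10, 17 and 80 dpi; points are estimates, bars 95% intervals, and red marks an adjusted p below 0.05. No probe is red in naive cord or at 10 dpi, 4 are at 17 dpi and 2 at 80 dpi.

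The test of the difference between times gave calls for 3 genes. Between naive cord and 17 dpi the TG over WT difference changed for 3 member probes (S100b and both of those Slc1a2 probes, 6.7% of all probes called). Between 17 and 80 dpi it changed for 4 (1 of Aqp4, S100b and the same 2 of Slc1a2, 1.64% of all). Between naive cord and 80 dpi it changed for no member (0.354% of all called), with 3 members and 2420 of all probes at an unadjusted p below 0.05. Between naive cord and 10 dpi it changed for none (0% of all called), with 2 members and 2009 of all probes unadjusted. These comparisons share their 17 dpi or naive arrays.

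Between EAE and naive cord, calls among the members were again in both directions at 17 dpi. In WT cord at 17 dpi, 3 probes were lower than in naive cord (Slc7a10, 1 of Glul and 1 of Slc1a2, against 7.75% of all probes) and 4 were higher (2 of Slc1a2, 1 of Slc1a3 and Aldh1l1, against 8.38%). In WT at 80 dpi only Slc7a10 was called against naive cord, and it was lower (0.11% of all lower, 0.977% higher). From 17 to 80 dpi in WT, 3 probes fell (2 of Slc1a2 and Aldh1l1, against 3.98%) and 1 of Aqp4 rose (against 3.82%). In TG cord at 17 dpi, 3 probes were lower than in naive cord (Slc7a10, 1 of Glul, 1 of Slc1a2, against 9.83%) and 1 of Slc1a3 was higher (against 6.86%). In TG at 80 dpi no member was called against naive cord, and 0.0206% of all probes were. At an unadjusted p below 0.05 there were 0 members and 635 of all probes. From 17 to 80 dpi in TG, 1 probe of Slc1a3 fell (against 4.08%) and 2 probes rose, Slc7a10 and 1 of Slc1a2 (against 6.52%). The WT and TG changes come from 1 array each for every pair of times, joined by the TG and WT arrays in the fit.

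**Figure D2:**
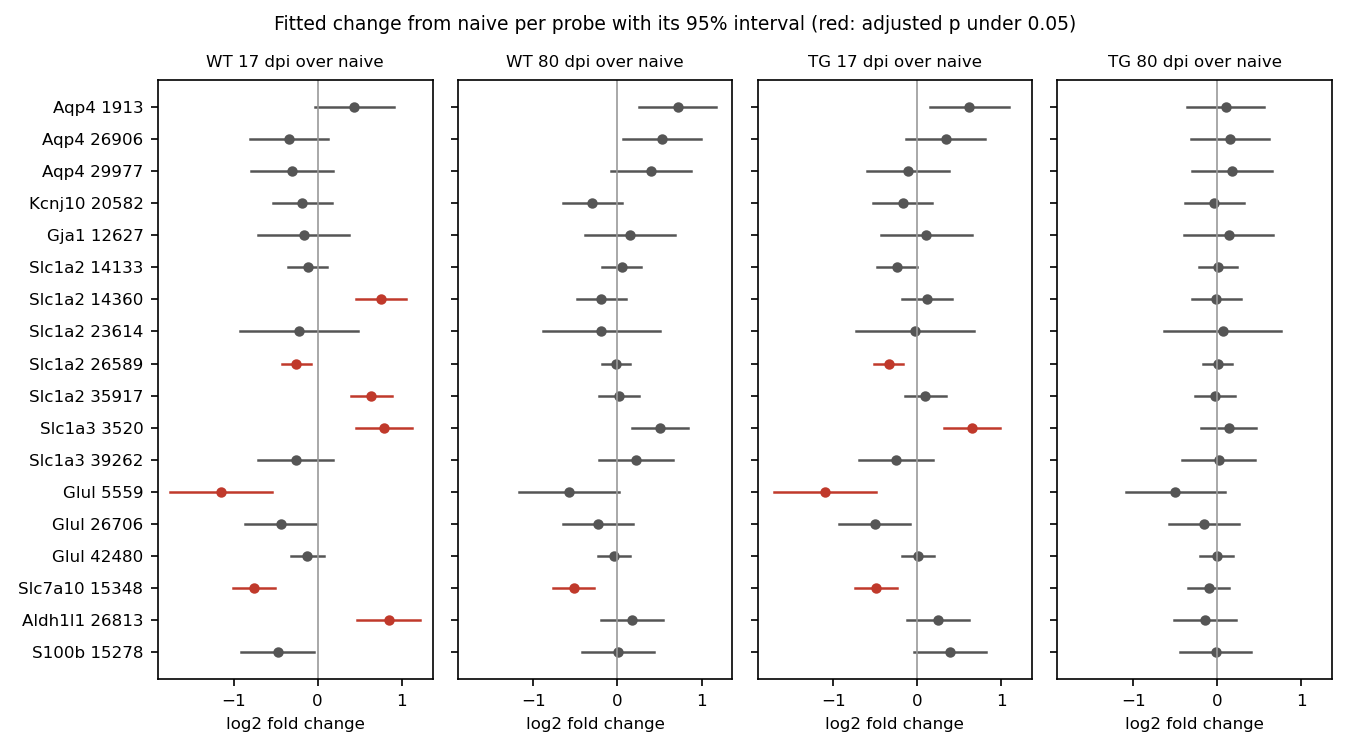
Fitted log2 fold change from naive cord (x axis) of the 18 member probes (y axis) for WT and TG at 17 and 80 dpi; points are estimates, bars 95% intervals, and red marks an adjusted p below 0.05. At 17 dpi 7 probes are red in WT and 4 in TG, at 80 dpi 1 in WT and 0 in TG.

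Markers of other cells moved with these comparisons, and their part in the members' results was not tested. At 17 dpi 24 of 31 macrophage and microglia probes were lower in TG and 0 higher, with list medians of -1.47 to -1.10 on the 3 arrays, 9 of 35 neuronal probes were higher and 0 lower, and 9 of 10 red blood cell probes were higher (medians 0.71 to 1.37). Reactive astrocyte markers had 9 of 25 probes lower and 1 higher (-0.34 to -0.11), T cell markers 7 of 15 lower and 1 higher (-0.54 to -0.12), and myelin and oligodendrocyte markers 6 of 30 higher and 1 lower (-0.24 to 0.27). At 80 dpi 15 of 31 macrophage and microglia probes were lower (-1.01 to -0.69 on the 4 arrays), as were 6 of 25 reactive astrocyte probes (-0.77 to -0.50), 6 of 36 probes of other astrocyte-enriched genes (-0.32 to -0.18) and 8 of 22 meningeal and fibroblast probes (-0.38 to -0.25). In WT at 17 dpi 24 of 31 macrophage and microglia probes were above naive cord, while 12 of 30 myelin and 12 of 35 neuronal probes were below it. The muscle list had a median of 3.39 and 3.02 on the arrays of TG animal 1-5 at 10 dpi and of 1.44 and 1.36 on those of TG animals 21 and 27 at 80 dpi. Arrays also differed in spread: the SD over probes was 1.07 on the 17 dpi array pairing TG animal 3 with WT animal 4 and 0.730 on that of WT animal 1 at 17 dpi and naive WT animal 2, and 0.286 to 0.639 on the other 18.

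At 80 dpi Aqp4, the water channel gene, was lower in TG cord with 1 of its 3 probes. Probe 1913 had ratios of -0.48 (TG animal 21 over WT animal 15), -0.44 (26 over 13), -0.91 (26 over 15) and -0.64 (27 over 14). Probes 26906 and 29977 had ratios of -0.74 to -0.41 and of -0.72 to -0.21. All 12 ratios of the 3 probes were thus below 0. Only the array of 26 over 15 had TG in Cy5. Here and below, ratios of several probes of a gene come from the same arrays and are not separate replicates. The fitted difference was -0.73 ± 0.15 for probe 1913 (1.66-fold lower, limma adjusted p = 0.0185). It was -0.59 ± 0.15 for probe 26906 and -0.50 ± 0.15 for probe 29977 (adjusted p = 0.067 and 0.178, not called). With the 3 probes averaged the gene was at -0.61 ± 0.10 (adjusted p = 0.00533). The call of probe 1913 was kept in 10 of 23 fits that each left out 1 animal, at values from -0.80 to -0.67. In title order the 3 probes were at 0.09, 0.34 and 0.35, none of them called.

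At the earlier times no Aqp4 probe was called. In naive cord 8 of 9 ratios were below 0, as at 80 dpi, and at 10 dpi 11 of 12, with fitted differences of -0.12 to -0.28 and of -0.33 to -0.37 each. At 17 dpi 5 of 9 were above 0, and the probes disagreed between TG animal 3 and WT animal 4, where probe 26906 read 1.30 and probe 29977 -0.83. For probe 26906 the TG over WT difference at 80 dpi was 1.06 log2 units below that at 17 dpi (-1.06 ± 0.21, adjusted p = 0.0219, kept in 7 of 23 fits without 1 animal). For probes 1913 and 29977 the same difference was -0.80 and -0.41, not called. In WT cord probe 26906 rose from 17 to 80 dpi by 0.87 ± 0.22 (adjusted p = 0.0239, kept in 8 of 23 fits). The direct array of WT animals at 17 over 80 dpi read -0.34, -0.73 and -0.62 for the 3 probes, and that of WT at 80 dpi over naive 1.11, 0.73 and 0.43.

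Partners of Aqp4 at the endfoot were followed through a list of 12 measured genes with 29 probes. At 80 dpi 1 probe was lower in TG and 0 higher (list median -0.03, all probes 0.01). It was that of Mlc1, a membrane protein of astrocyte junctions and endfeet, at -0.56 ± 0.10 (adjusted p = 0.00581). Like that of Aqp4 probe 26906, the Mlc1 difference at 80 dpi was below that at 17 dpi (-0.66 ± 0.14, adjusted p = 0.0248). At 17 dpi 1 probe was lower in TG, that of the cation channel Trpv4 (-0.42 ± 0.10, adjusted p = 0.0121). From naive cord to 17 dpi 8 of the 29 fell in WT and 7 in TG, with 0 higher in either (medians -0.21 and -0.21). The WT calls were led by Dtna, which encodes a dystrophin-associated scaffold protein (-0.98 ± 0.18, adjusted p = 0.00178), and Hepacam, an adhesion protein that binds Mlc1 (-0.40 ± 0.08, adjusted p = 0.00269).

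Kcnj10, the potassium channel gene, was called in no comparison of genotype or time. Its ratios followed the dye. On the 7 TG and WT arrays with TG in Cy5 it read -1.12 to -0.21, and on the 7 with TG in Cy3 0.01 to 0.80. At 80 dpi the ratios were 0.65, 0.80 and 0.64 with TG in Cy3 and -0.32 with TG in Cy5. The fitted TG over WT differences were -0.06, -0.10, -0.05 and 0.21 from naive cord to 80 dpi, with 95% intervals that held 0 each time (-0.03 to 0.45 at 80 dpi). The dye effect was -0.43 ± 0.06 (adjusted p = 2e-05). Read in title order this became a TG over WT difference of -0.44 in naive cord and of -0.67 at 80 dpi, both called, so the result for Kcnj10 rests on the reading. Dye effects were called for 7 of the 18 member probes in the working direction and for 46.1% of all probes.

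Other genes of potassium, sodium and bicarbonate handling (8 measured, 13 probes) showed 1 call at 17 dpi and 0 at 80 dpi between TG and WT. It was the inward rectifier Kcnj2, higher in TG at 0.35 ± 0.07 (adjusted p = 0.00488). Kcnj16, whose channel subunit pairs with that of Kcnj10, was not called between genotypes at 17 or 80 dpi with any of its 3 probes. In TG cord its probe 15787 fell from naive to 17 dpi (-0.24 ± 0.08, adjusted p = 0.0448). Slc4a4, the sodium bicarbonate cotransporter, fell in WT at 17 dpi (-0.68 ± 0.15, adjusted p = 0.00554).

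Gja1, the main connexin gene of astrocytes, was likewise called in no comparison of genotype or time. At 80 dpi it read 0.24, -0.10 and 0.25 with TG in Cy3 and -0.74 with TG in Cy5. The fitted difference was -0.36 ± 0.17, with a 95% interval of -0.73 to 0.00 (adjusted p = 0.656), and the dye effect was -0.36 ± 0.09 (adjusted p = 0.003). In title order it was -0.47 at 80 dpi, not called. The intervals at the other times were -0.77 to 0.07 in naive cord, -0.24 to 0.57 at 10 dpi and -0.49 to 0.34 at 17 dpi.

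Among the other connexins, pannexins and junction scaffold genes (8 measured, 13 probes) 2 probes were lower and 1 higher in TG at 17 dpi (median -0.01), and 1 was lower at 80 dpi. Panx1, a large-pore channel gene also found in immune and vascular cells, was lower at 17 dpi (-0.49 ± 0.07, adjusted p = 0.000294) and the vascular connexin Gja5 at 80 dpi with probe 39847 (-0.56 ± 0.08, adjusted p = 0.00145). Gjc3 and Gjb1, connexin genes of myelinating cells that couple oligodendrocytes, fell in WT from naive to 17 dpi (-0.61 ± 0.15 and -0.71 ± 0.21, adjusted p = 0.00953 and 0.0317). Gjb2, another astrocyte connexin, was not called between genotypes at 17 or 80 dpi.

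Slc1a2, a gene of astrocytic glutamate uptake, gave different answers with different probes. Probes 14360 and 35917, annotated to the same transcript record, went together. At 17 dpi probe 14360 read -0.52 (TG animal 7 over WT animal 1), -0.81 (3 over 4) and -0.27 (7 over 4), and probe 35917 read -0.42, -0.48 and -0.31. All 6 ratios, both probes being read on the same arrays, were below 0, in both dye orders. The fitted TG over WT differences were -0.53 ± 0.11 (1.44-fold lower, adjusted p = 0.00466) and -0.40 ± 0.09 (1.32-fold lower, adjusted p = 0.0078). The first call was lost only without WT animal 4 at 17 dpi among the 23 fits without 1 animal, the second in 3 of 23. In title order the values were -0.36 and -0.08, not called.

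The other 3 Slc1a2 probes did not show this difference. At 17 dpi their fits were -0.10 (probe 14133), 0.08 (probe 23614) and -0.13 (probe 26589), with 95% intervals that held 0. Across the 20 arrays the cosine of the ratios was 0.716 between probes 14360 and 35917 and 0.819 between 14133 and 26589. Between the pairs it ran from -0.561 to -0.284. With all 5 probes averaged the gene was lower in TG at 17 dpi by a smaller amount (-0.22 ± 0.06, adjusted p = 0.025). What the probes share beyond their symbol could not be examined, since their sequences were not used here.

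The same pair of Slc1a2 probes carried the change with EAE. In WT cord at 17 dpi they were above naive cord, by 0.76 ± 0.14 for probe 14360 (adjusted p = 0.00187) and 0.64 ± 0.11 for probe 35917 (adjusted p = 0.00152). The direct array of WT animal 1 over naive animal 2 read 1.05 and 0.94. Both fits turned sign in title order (-0.33 and -0.22, not called). From 17 to 80 dpi both fell in WT, by 0.95 and 0.62 on the log2 scale (adjusted p = 0.00105 and 0.00434), and in title order they were at -0.16 and -0.05, not called. In TG cord neither was called at 17 dpi against naive (0.11 and 0.09). The TG over WT difference itself moved from naive cord to 17 dpi by -0.64 ± 0.14 and -0.54 ± 0.12 (adjusted p = 0.0135 and 0.0114) and from 17 to 80 dpi by 0.83 ± 0.13 and 0.50 ± 0.11 (adjusted p = 0.00669 and 0.0352). Those 4 calls were kept in 15, 17, 16 and 5 of 23 fits without 1 animal. Probe 26589 went the other way at 17 dpi: it was below naive cord in WT (-0.25 ± 0.08, adjusted p = 0.0441) and in TG (-0.34 ± 0.08, adjusted p = 0.0107), and rose in TG from 17 to 80 dpi (0.35 ± 0.08, adjusted p = 0.0142). The WT value of probe 26589 was kept as a call in 8 of 23 fits and was -0.10 without WT animal 1 at 17 dpi and -0.16 without naive WT animal 2. In title order it was 0.34 in WT and 0.10 in TG, not called. The calls of probes 14360 and 35917 against naive cord in WT were lost without WT animal 1 at 17 dpi and without naive WT animal 2, and animal 1 is on both direct arrays that set a WT animal at 17 dpi against another time.

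**Figure D3:**
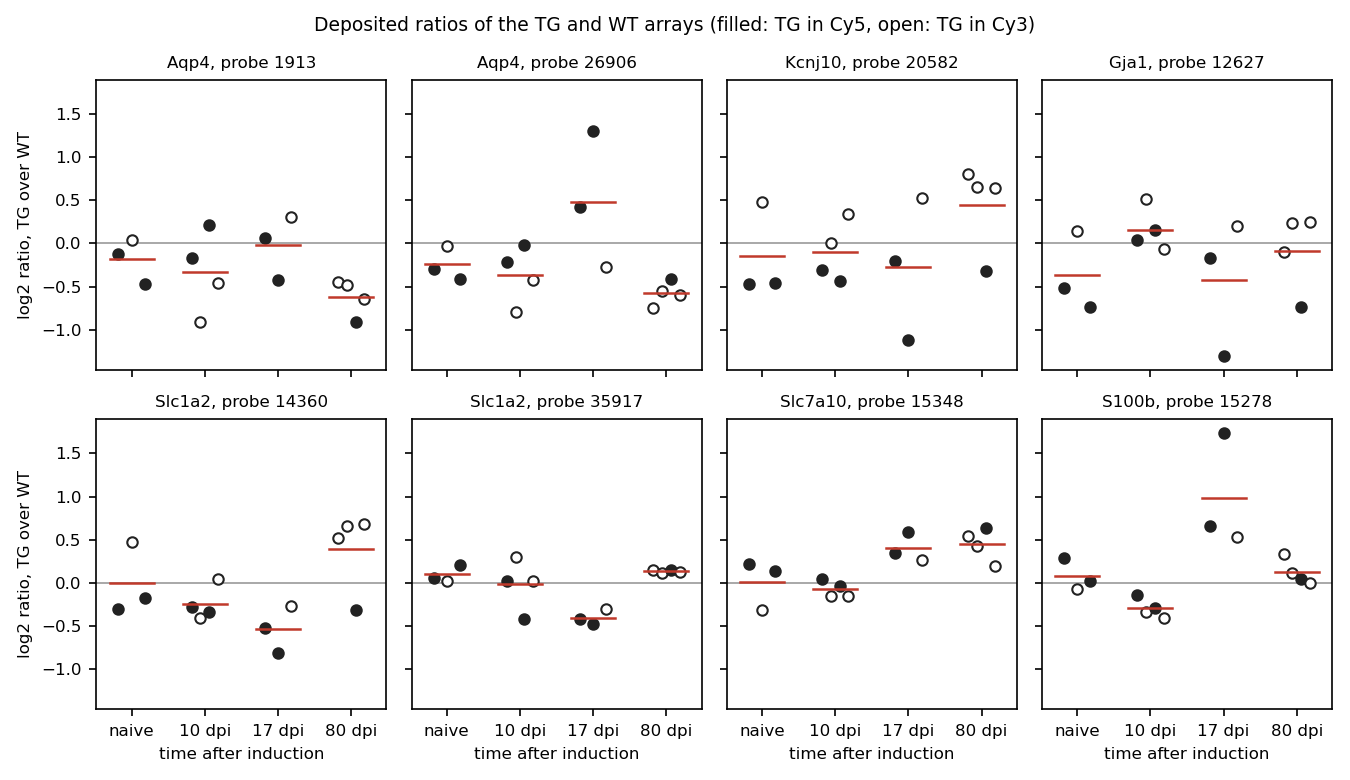
Deposited log2 ratios read as TG over WT (y axis) of 8 member probes by time (x axis); each point is 1 array, filled with TG in Cy5 and open with TG in Cy3, and red bars are means over arrays. Aqp4 lies below 0 on all arrays at 80 dpi and Slc7a10 and S100b above 0 on all arrays at 17 dpi, while the Kcnj10 ratios split by dye.

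Slc1a3, the other glutamate transporter gene, did not pass the test between genotypes at any time. At 80 dpi probe 3520 read 0.02, 0.15 and 0.04 with TG in Cy3 and -1.003 with TG in Cy5. Its fitted difference of -0.41 ± 0.11 had an adjusted p of 0.0797, and that of probe 39262 was -0.25 ± 0.14 (adjusted p = 0.845). At 17 dpi probe 3520 was above naive cord in WT (0.79 ± 0.16, 1.73-fold, adjusted p = 0.00331) and in TG (0.65 ± 0.16, 1.57-fold, adjusted p = 0.0128). Both signs turned in title order (-0.45 and -0.08, not called), and the WT call was lost without WT animal 1 at 17 dpi or naive WT animal 2. From 17 to 80 dpi it fell in TG by 0.51 on the log2 scale (adjusted p = 0.0479). That call was kept in only 4 of 23 fits without 1 animal, and the fall was 0.27 without TG animal 1 at 17 dpi. Probe 39262 was at -0.26 and -0.25 in WT and TG at 17 dpi against naive and was not called, so the probes of this gene differ in sign.

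Glul, the glutamine synthetase gene, was not called between genotypes with any of its 3 probes. Probe 5559 fell in EAE at 17 dpi, by 1.15 on the log2 scale in WT (2.22-fold, adjusted p = 0.0115) and by 1.10 in TG (2.14-fold, adjusted p = 0.0169). Title order turned both signs (0.30 and 0.07, not called). The direct arrays read -1.60 in WT and -0.75 in TG. Probes 26706 and 42480 were at -0.44 and -0.13 in WT and at -0.51 and 0.01 in TG and were not called, although probe 42480 is annotated to the same record as probe 5559. The WT value of probe 5559 was -0.35 without WT animal 1 at 17 dpi and -0.61 without naive WT animal 2, no longer called, and the TG value was -1.76 without TG animal 1, with an adjusted p of 0.0779.

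Among other genes of glutamate and glutamine handling (12 measured, 25 probes) 7 probes were below naive cord at 17 dpi in WT and 7 in TG, and 0 above in either (medians -0.27 and -0.21). Slc1a1, a neuronal glutamate transporter gene, was at -1.16 ± 0.20 and -1.25 ± 0.20 (adjusted p = 0.00123 and 0.00148). Slc38a3, the glutamine transporter through which astrocytes release glutamine, was at -0.68 ± 0.13 and -0.54 ± 0.13 (adjusted p = 0.00248 and 0.0118). Between genotypes 1 of the 25 was called at 17 dpi, the glutamate receptor gene Grm5 (0.23 ± 0.06, adjusted p = 0.0121), and 0 at 80 dpi.

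Slc7a10, the exchanger of small neutral amino acids, was called between times and between genotypes in the working direction and in no comparison in title order. It was lower at 17 dpi than in naive cord in WT (-0.75 ± 0.12, 1.69-fold, adjusted p = 0.000572) and in TG (-0.49 ± 0.12, 1.41-fold, adjusted p = 0.0114). The direct arrays read -0.90 and -0.64. In title order the WT value turned (0.32) and the TG value was -0.15, neither called. The WT call was kept in all 23 fits without 1 animal, while the TG call was lost without TG animal 1 at 17 dpi (-0.30), naive TG animal 5 (-0.27) or naive WT animal 2. At 80 dpi Slc7a10 was still below naive cord in WT (-0.52 ± 0.12, adjusted p = 0.042, kept in 11 of 23 fits, and -0.80 without WT animal 14 at 80 dpi), a value that also turned in title order (0.44, not called). In TG it rose from 17 to 80 dpi by 0.39 ± 0.12 (adjusted p = 0.0429, kept in 6 of 23 fits). The array of TG animal 27 at 80 dpi over naive TG animal 8 lists Slc7a10 at exactly 0, a value the fit used as it stands.

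Between genotypes Slc7a10 was higher in TG at both later times. At 17 dpi it read 0.35 (TG animal 7 over WT animal 1), 0.59 (3 over 4) and 0.27 (7 over 4), and at 80 dpi 0.43 (21 over 15), 0.54 (26 over 13), 0.64 (26 over 15) and 0.20 (27 over 14). All 7 ratios were above 0, whereas the 7 of naive cord and 10 dpi ran from -0.32 to 0.22 with both signs. The test of the difference between times did not call this contrast. The TG over WT difference was above that in naive cord by 0.26 at 17 dpi and by 0.42 at 80 dpi, neither called. The fitted difference was 0.32 ± 0.09 at 17 dpi (1.25-fold higher, adjusted p = 0.0295) and 0.48 ± 0.08 at 80 dpi (1.39-fold higher, adjusted p = 0.00425). The 80 dpi call was kept in 18 of 23 fits without 1 animal, at 0.39 to 0.59, and the 17 dpi call in 10 of 23, at 0.20 without WT animal 4. In title order the values were -0.06 and -0.06, not called.

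Promoters of Slc7a10 and S100b, the 2 members that were higher in TG at 17 dpi, are shown because the transgene acts on NF-kappaB. They come from RefSeq on GRCm38.p6 and run from 250 bases before to 50 bases after the start of the gene, with matches of any motif searched in capitals. Slc7a10 lies at chr7:35186135-35186434 on the plus strand and S100b at chr10:76253586-76253885 on the plus strand.
Slc7a10: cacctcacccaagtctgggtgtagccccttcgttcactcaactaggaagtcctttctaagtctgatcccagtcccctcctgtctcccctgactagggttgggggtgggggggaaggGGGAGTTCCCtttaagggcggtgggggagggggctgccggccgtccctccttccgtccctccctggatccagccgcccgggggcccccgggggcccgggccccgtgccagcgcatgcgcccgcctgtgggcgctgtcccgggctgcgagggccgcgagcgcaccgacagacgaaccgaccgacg
S100b: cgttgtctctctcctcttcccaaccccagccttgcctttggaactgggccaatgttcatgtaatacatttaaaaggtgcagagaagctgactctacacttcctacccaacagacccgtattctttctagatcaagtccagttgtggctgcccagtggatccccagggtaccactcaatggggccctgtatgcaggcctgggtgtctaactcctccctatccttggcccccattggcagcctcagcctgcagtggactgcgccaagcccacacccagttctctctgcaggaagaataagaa
The motifs searched on both strands were the NF-kappaB consensus, the STAT consensus TTCCNGGAA and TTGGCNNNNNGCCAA, the palindrome of the NFI factors. RefSeq promoters were matched for 9 of the 10 listed genes, Aqp4 being the other. The NF-kappaB consensus was found in 1 of the 9, that of Slc7a10, from 134 to 125 bases before the start, and in 4.51% of all 32851 promoters. The STAT consensus (1.15% of all) and the NFI palindrome (0.0365% of all) were found in 0 of the 9. These matches describe the letters only.

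In the list of glycine, serine and GABA handling (12 measured genes, 25 probes) 3 probes were lower and 1 higher in TG at 17 dpi and 0 were called at 80 dpi (medians 0.09 and -0.02). The higher one was Slc6a9, the astrocyte glycine transporter gene (0.43 ± 0.13, adjusted p = 0.0386). Slc6a9 fell in WT from naive to 17 dpi by 1.08 and in TG by 0.61 on the log2 scale (adjusted p = 0.000511 and 0.0222), and rose again in WT by 80 dpi (0.76 ± 0.16, adjusted p = 0.0113). Slc6a11, an astrocyte GABA transporter gene, fell at 17 dpi with probe 18883 in WT and TG (-1.19 ± 0.18 and -0.95 ± 0.18, adjusted p = 0.000452 and 0.00338) while its probe 1227 was at -0.01 and 0.03, and neither was called between genotypes at 17 dpi. The cystine transporter gene Slc7a11, which macrophages also express, was lower in TG at 17 dpi with probes 30352 and 42434 (-0.45 ± 0.10 and -0.93 ± 0.21, adjusted p = 0.00695 and 0.00987).

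Aldh1l1, the folate enzyme, was not called between genotypes. At 17 dpi it read -0.51, -0.15 and -0.13, all below 0, with a fit of -0.40 ± 0.13 (adjusted p = 0.0631), and in naive cord 0.26, 0.03 and 0.12, all above 0, with a fit of 0.20. In WT cord it was above naive at 17 dpi by 0.84 ± 0.18 (1.79-fold, adjusted p = 0.00416) and fell by 0.67 on the log2 scale from 17 to 80 dpi (adjusted p = 0.0292). In title order the first turned (-0.17) and the second was -0.37, neither called. In the working direction these values were 0.34 and -0.20 without WT animal 1 at 17 dpi and were not called. Of 23 fits without 1 animal, the first call was kept in 21 and the second in 9. In TG the 17 dpi value was 0.25, not called. Of the other folate enzyme genes (8 measured, 14 probes) 2 probes rose and 2 fell in WT at 17 dpi. Tyms, the thymidylate synthase gene of dividing cells, rose with probe 2578 (0.80 ± 0.18, adjusted p = 0.00685), and Mthfd1, a cytosolic folate enzyme gene, fell (-0.77 ± 0.14, adjusted p = 0.00138).

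S100b, the calcium-binding protein gene, was higher in TG than in WT at 17 dpi. It read 0.66 (TG animal 7 over WT animal 1), 1.74 (3 over 4) and 0.54 (7 over 4). All 3 were above 0 and above every TG over WT ratio of S100b at the other times, which ran from -0.40 to 0.34. The fitted difference was 0.98 ± 0.15 (1.97-fold higher, adjusted p = 0.000781). It was called in all 23 fits without 1 animal, at 0.73 to 1.39, and under 11 of 12 other settings, the exception being title order (0.52, adjusted p = 0.331). Arrays taken as independent, both filters on missing values and averaging over its only probe could change little here. Calls kept under those settings are no sign of robustness. At 10 dpi the 4 ratios were all below 0 (-0.40 to -0.14), with a fit of -0.29 that was not called, and at 80 dpi the fit was 0.09. The difference at 17 dpi was above that in naive cord by 0.86 ± 0.20 (adjusted p = 0.0206, kept in 11 of 23 fits) and the difference at 80 dpi was below that at 17 dpi by 0.88 (adjusted p = 0.0341, kept in 7 of 23 fits). Against naive cord S100b was not called in either genotype at 17 dpi, with -0.48 in WT and 0.39 in TG.

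Other genes of the S100 family were called in both directions. Of 10 probes for 9 genes, 4 were lower and 1 higher in TG at 17 dpi (median -0.28) and 3 lower and 0 higher at 80 dpi (median -0.25). S100a6 and S100a11, which are expressed widely, in reactive and immune cells too, were lower at 17 dpi (-1.92 ± 0.20 and -1.16 ± 0.12, adjusted p = 3e-05 for both). S100a9, a neutrophil gene, was higher (1.34 ± 0.39, adjusted p = 0.0345). In WT cord 8 of the 10 probes were above naive at 17 dpi, led by S100a6 (2.68 ± 0.26, adjusted p = 2.9e-05). The 36 probes of other astrocyte-enriched genes held 6 higher and 1 lower in TG at 17 dpi, among them the neurotensin receptor gene Ntsr2 (1.05 ± 0.10, adjusted p = 2.26e-05) and Ttyh1 (0.97 ± 0.17, adjusted p = 0.00185). At 80 dpi the same list held 6 lower and 0 higher, among them Id3 (-0.81 ± 0.07, adjusted p = 1.39e-05) and the metallothionein gene Mt2 (-0.92 ± 0.10, adjusted p = 0.000117).

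Read in title order instead, the members gave other calls. In naive cord 1 was called, Kcnj10, against 8.69% of all probes, and at 10 dpi 0, against 7.95%. At 17 dpi no probe was called, member or other (0%). At 80 dpi 4 members were, against 22.8% of all probes: Kcnj10 (-0.67), Glul probe 26706 (-0.55), Slc1a2 probe 23614 (-0.58) and, in the other direction, Slc1a2 probe 26589 (0.34). No member was called in title order between times within a genotype. The signs of S100b and of Slc1a2 probes 14360 and 35917 at 17 dpi are the same in both readings. Those of Slc7a10 at 17 dpi and of Aqp4 and Slc7a10 at 80 dpi turn. Title order turns most TG and WT arrays of 80 dpi, where TG was mostly in Cy3, but not most of those of 17 dpi. A kept or turned sign thus depends in part on this layout and does not rank the genes.

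**Figure D4:**
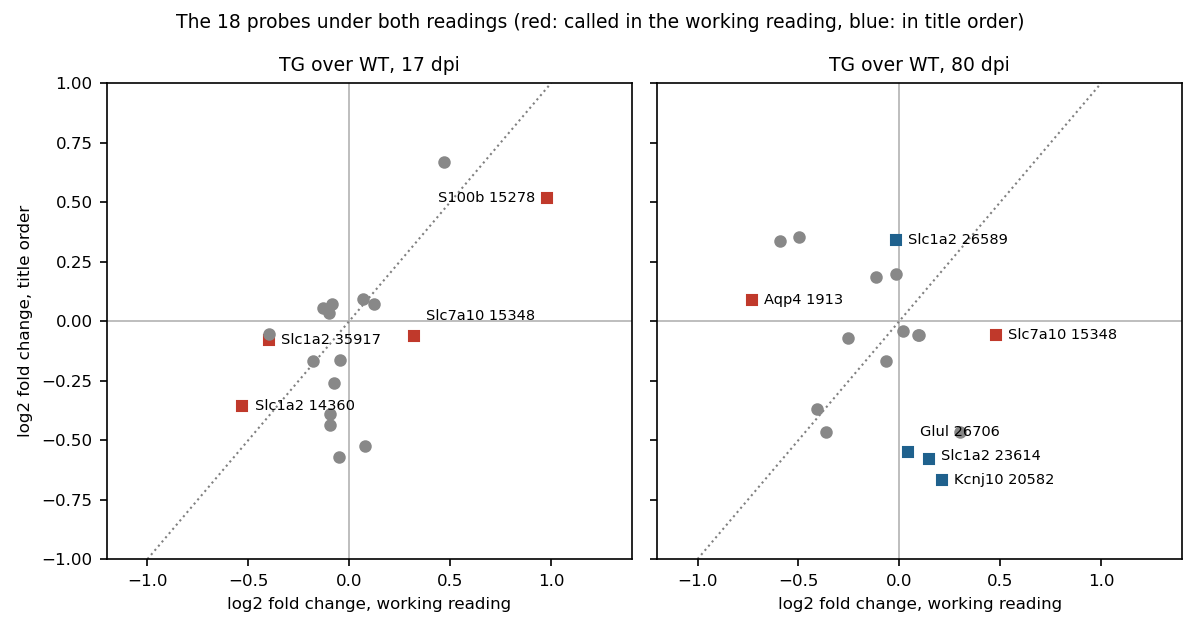
TG over WT log2 fold change of the 18 member probes in the working direction (x axis) and in title order (y axis) at 17 and 80 dpi; red squares are called in the working direction, blue squares in title order, grey points in neither, and the dotted line marks equal values. S100b at 17 dpi lies on the same side of 0 in both readings (0.98 and 0.52), while Aqp4 probe 1913 at 80 dpi (-0.73 and 0.09) does not. Title order turns most TG and WT arrays of 80 dpi but not most of those of 17 dpi.

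Likeness between members was described by the cosine of their 20 deposited ratios, with the probes of a gene averaged, which is the same in either reading and contains the dye effect. The most alike were Gja1 and Slc1a3 (0.889), followed by Gja1 and Kcnj10 (0.647). Gja1, Kcnj10 and Slc1a3 probe 3520 each carried a called dye effect. The least alike were Slc1a3 and Slc7a10 (-0.681) and Slc1a2 and S100b (-0.672). The Slc1a2 and Slc1a3 values average probes that disagreed. Between probes the cosine was as low as -0.587 within Slc1a2 and was 0.284 within Slc1a3. S100b and Slc7a10 were at 0.481. Of 31856 probes with 1 symbol and a value on all 20 arrays, those most like the mean of the members were Col27a1 (0.881), Clybl (0.878), Tprgl (0.847), Tcf4 (0.843), Nos3 (0.842), Wnk1 (0.841), Lrrc58 (0.839), Cenpo (0.837), Xist (0.836) and Mgat3 (0.835). The probe most like each member was Fcrls for Aqp4 (0.854), Cab39 for Kcnj10 (0.946), Cav2 for Gja1 (0.907), Kif3b for Slc1a2 (0.888), Bmpr1a for Slc1a3 (0.94), Ttyh2 for Glul (0.921), Ccdc92 for Slc7a10 (0.917), Ogfr for Aldh1l1 (0.938) and Cdkn1c for S100b (0.872). The 20 arrays share animals and dyes, so these values are a description.

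**Figure D5:**
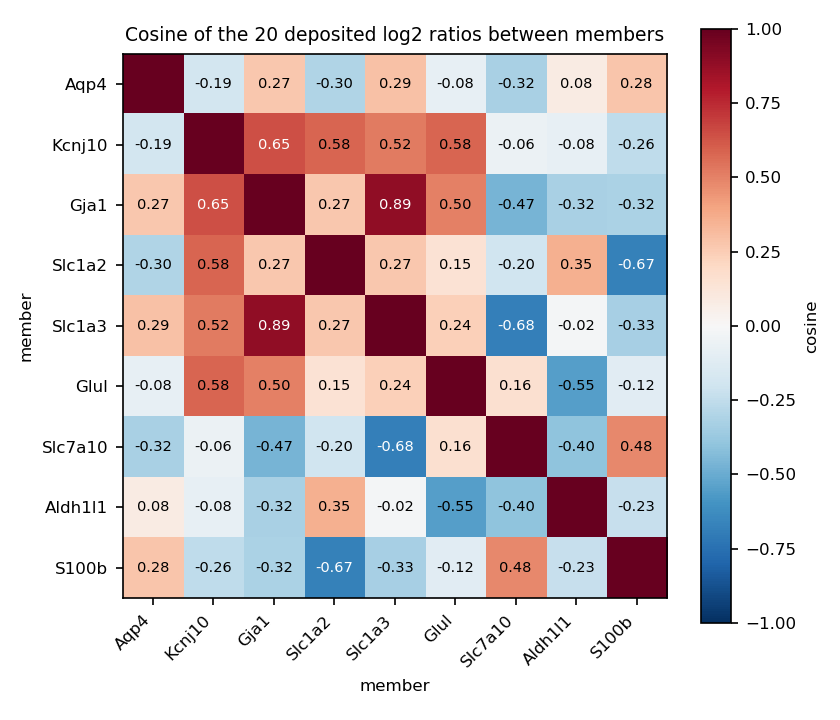
Cosine of the 20 deposited log2 ratios (colour and printed value, from -1 to 1) between each pair of the 9 measured members (both axes). Gja1 and Slc1a3 have the highest value (0.889) and Slc1a3 and Slc7a10 the lowest (-0.681).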

How the data were processed

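Spinal cord RNA of 23 mice was compared on 20 two-colour arrays. The deposited values are log2 ratios, which the authors normalized within arrays by global loess and between arrays by quantiles with limma, per the series' design text; the log base is inferred from the values. The sources give neither direction nor signal levels. Ratios were turned as described above, and genes were named from the platform annotation (32042 probes with 1 symbol, 47 with several, 12201 with none). Values per array numbered 43710 to 43894, and the number of arrays limits the precision.

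Probes with a value on at least 10 arrays (43792) were fitted with limma 3.58.1 in R 4.3.3, with a coefficient per group, a dye effect and a pooled correlation of 0.0041 between arrays that share an animal, leaving 13 residual degrees of freedom. No array links 10 dpi to another time. P-values were adjusted by Benjamini-Hochberg over all probes, with a threshold of 0.05. The procedure was tested on simulated data. The members, gene lists and tests were chosen with earlier results of these data known. Named partners are, for each list, the called genes with the smallest adjusted p in either direction, or genes paired with a member by role. Members' likeness is a cosine over 20 arrays. Alternatives changed the reading, the dye term, the weights, the filter, the scaling, the averaging of probes and the arrays used; leaving out the 2 arrays of widest spread was chosen after seeing the data.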

Additional observations from a re-analysis of the deposited data

Results flagged for a closer look

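Between times, the TG over WT difference itself passed the test for 4 member probes. For S100b it was 0.86 higher at 17 dpi than in naive cord and fell from 17 to 80 dpi (-0.88). For Slc1a2 probe 14360 it fell from naive cord to 17 dpi (-0.64) and rose from 17 to 80 dpi (0.83), and for probe 35917 likewise (-0.54 and 0.50). For Aqp4 probe 26906 it fell from 17 to 80 dpi (-1.06).

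At 80 dpi, the array of TG animal 26 over WT animal 15 stood apart from the other 3 TG and WT arrays for 5 member probes, by its gap to the nearest of them. It is the array of that time with TG in Cy5. Kcnj10 read -0.316 there, Slc1a2 probe 14360 -0.319, Slc1a2 probe 23614 -0.231, Slc1a2 probe 26589 0.266 and Slc1a3 probe 3520 -1.003. Animal 26 and animal 15 each appear on another array of that time, with TG in Cy3, where Kcnj10 read 0.80 and 0.65. In all, 36 combinations of probe and time were examined and 5 stood apart. A chance share of about 1 in 20 holds for independent values of 1 kind. It cannot be set against these 5, which share 1 array and its dye order. The part of the dye in these gaps was not tested apart from the fitted dye effect.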

How the results depend on the processing

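The numerator of each ratio is not stated, most time contrasts rest on 1 array per pair of times, and the ratios hold no signal over background, so dim probes could not be told from bright ones. No paired analysis was possible because the numbers in the labels name animals within a group and each array itself pairs 2 animals. Of 32 called values, all kept call and direction with arrays taken as independent and under both other filters on missing values, and 31 with array weights. Independence and the filters could change little here, since the pooled correlation was 0.0041 and every member probe had values on all 20 arrays. Calls kept under these settings are thus no sign of robustness. Calls were lost without change of direction for 14 values with no dye term, 11 when 10 dpi had its own dye term, 15 with arrays scaled to 1 spread, 17 without the 2 arrays of 17 and 80 dpi, 10 of 13 with only the 14 TG and WT arrays and 16 without the 2 arrays of widest spread. Leaving out each animal gave 736 values, of which 486 kept and 250 lost the call and 0 turned. The cause of these changes was not tested.

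In title order all 32 calls were lost and 16 values turned. TG over WT became -0.0626 for Slc7a10 at 17 dpi and -0.0573 at 80 dpi, and 0.0879 for Aqp4 probe 1913 at 80 dpi. WT at 17 dpi over naive became -0.33 for Slc1a2 probe 14360, 0.34 for 26589, -0.22 for 35917, -0.45 for Slc1a3 probe 3520, 0.32 for Slc7a10, 0.30 for Glul probe 5559 and -0.17 for Aldh1l1. WT at 80 dpi over naive became 0.44 for Slc7a10. TG at 17 dpi over naive became 0.10 for Slc1a2 probe 26589, -0.0814 for Slc1a3 probe 3520 and 0.0735 for Glul probe 5559. The change in the TG over WT difference of Slc1a2 probe 14360 became 0.0634 from naive to 17 dpi and -0.11 from 17 to 80 dpi. With probes averaged per gene 20 values kept and 11 lost the call, and Slc1a2 in WT at 17 dpi over naive was 0.16, where its probe 26589 alone was -0.25. All calls of Slc7a10, S100b and Aldh1l1 were among those kept, but averaging could change little for genes with no further probe. Among calls of genes with several probes, more were lost or turned than kept.

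Counts of member probes called moved as follows. TG over WT in naive cord went from 0 to 1 in title order, and at 17 dpi from 4 to 0 in title order and to 2 with no dye term, 1 spread, only the 14 arrays or without the widest arrays (2 to 5 without 1 animal). TG over WT at 80 dpi went from 2 to 4 in title order, 9 with weights, 4 with 1 spread, 1 without the arrays of 17 and 80 dpi or with only the 14 arrays, and 5 without the widest (0 to 5 without 1 animal, 0 without TG 21 or 26, WT 13 or 15 or WT 1-4 of 10 dpi). WT at 17 dpi over naive went from 7 to 0 in title order, 4 with 1 spread, 3 averaged and 1 without the widest (1 to 9, 1 without WT 1 of 17 dpi or naive WT 2). WT at 80 dpi over naive went from 1 to 0 in title order, with no dye term and without the 17 and 80 dpi or the widest arrays, 2 with a separate dye term and 6 with weights (0 to 1). WT at 80 over 17 dpi went from 4 to 0 in title order and without the 17 and 80 dpi arrays, 2 with a separate dye term or averaged and 8 with weights (0 to 7, 0 without WT 1). TG at 17 dpi over naive went from 4 to 0 in title order, 1 with no dye term or without the 17 and 80 dpi arrays, 2 with 1 spread or averaged and 9 with weights (0 to 5, 0 without TG 1 or naive TG 5). TG at 80 dpi over naive went from 0 to 1 with weights (0 to 0). TG at 80 over 17 dpi went from 3 to 0 in title order, with no dye term, with 1 spread and without the 17 and 80 dpi arrays, 1 averaged and 8 with weights (0 to 3). The change in TG over WT from naive to 17 dpi went from 3 to 0 in title order, with a separate dye term, only the 14 arrays or without the widest, 1 averaged and 7 with weights (0 to 7). From naive to 80 dpi it went from 0 to 6 with weights (0 to 1). From 17 to 80 dpi it went from 4 to 0 in title order, without the 17 and 80 dpi arrays or with only the 14, 2 with no dye term, 1 spread or without the widest, 1 with a separate dye term and 7 with weights (0 to 6). TG over WT at 10 dpi and its change from naive stayed at 0 under every setting run.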
